A study of Mus musculus with 12 samples.

Results

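The genes described here are 43 interferon-stimulated genes of C2C12 cells, an established line of mouse myoblasts that can be driven to form muscle fibres in culture. They were chosen by name, with earlier results of these data known, from the deposited table of 78275 gene IDs. All 43 names were found, and all 43 were among the 15030 genes tested. Counts of members beside the share of all tested genes are therefore descriptive only. The 12 libraries of polyadenylated RNA form 4 groups of 3. The groups were cells with an siRNA against Zfp143, labelled znf143_knockdown, and cells with a non-targeting control siRNA, each either uninduced or on day 5 of myogenic induction. All cells were transfected with Lipofectamine 3000, a lipid reagent, in growth medium with 10% fetal bovine serum. Uninduced cells were collected 24 hours after transfection, and induced cells spent 5 days in medium with 1% horse serum. Every group therefore carried a transfected siRNA, and no untransfected cells are among the samples.

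Interferons are secreted proteins that bind receptors on the cell surface and, through Janus kinases, activate transcription factors in the cell. A complex that contains STAT2 and IRF9 binds the interferon-stimulated response element, or ISRE, and a second element, the gamma-activated site or GAS, serves the response to interferon gamma. The genes switched on in this way encode proteins that bind or cut viral RNA, block viral entry and release, tag proteins with ISG15, or restrict pathogens inside vacuoles. Several of them, among them Stat2, Irf9 and Irf7, encode factors of the pathway itself. ZNF143, the product of Zfp143, is a zinc finger factor that binds many promoters.

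RefSeq promoter sequences (GRCm38.p6) were at hand for 33 of the 43 genes. In the 250 bases before the start of transcription, 18 of these 33 (54.5%) held an ISRE core, GAAA and GAAA with any 2 bases between them, searched on both strands, against 936 of all 27025 genes (3.46%). A GAS core, TTCNNNGAA, was present in 8 of 33 (24.2%), against 8.13% of all genes, and the letters of a ZNF143 site, ACTACA and CCCA with any 3 bases between them, in 1 of 33 (3.03%), Ifit2, against 1.78% of all genes. Stretches with their flanks follow for genes on which the results turn, each 5′ to 3′ on the strand of the gene, with the ISRE cores in capitals. Overlapping cores run together, and a core on the other strand reads TTTC and TTTC with 2 bases between them.
Ifit1, chr19:34640765-34640833, plus strand: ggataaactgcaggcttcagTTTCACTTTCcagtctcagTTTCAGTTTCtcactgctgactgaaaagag
Isg15, chr4:156200855-156200916, minus strand: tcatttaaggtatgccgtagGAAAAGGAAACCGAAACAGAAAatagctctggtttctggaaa
Bst2, chr8:71537567-71537622, minus strand: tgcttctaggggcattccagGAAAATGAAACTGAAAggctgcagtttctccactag
Stat2, chr10:128270256-128270305, plus strand: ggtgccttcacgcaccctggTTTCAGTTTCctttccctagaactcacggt
Oas1a, chr5:120907526-120907565, minus strand: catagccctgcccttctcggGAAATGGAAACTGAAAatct
Oas3, chr5:120777705-120777754, minus strand: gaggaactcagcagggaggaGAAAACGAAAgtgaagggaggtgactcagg
Rsad2, chr12:26456543-26456592, minus strand: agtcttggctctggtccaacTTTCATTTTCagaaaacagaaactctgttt
Trim30a, chr7:104465200-104465249, minus strand: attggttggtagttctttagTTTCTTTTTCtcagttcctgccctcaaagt
Trim30d, chr7:104507861-104507910, minus strand: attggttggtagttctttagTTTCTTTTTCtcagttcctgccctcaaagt
Ifit1, Isg15 and Bst2 are shown because they were higher with the Zfp143 siRNA in uninduced cells, and Stat2 as the regulator that was higher with them. Oas1a, Oas3, Rsad2, Trim30a and Trim30d are shown because they were lower on day 5. The 50 bases printed for Trim30a and Trim30d are letter for letter the same. A match describes these letters only and was not tested as a binding site.

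**Figure D1:**
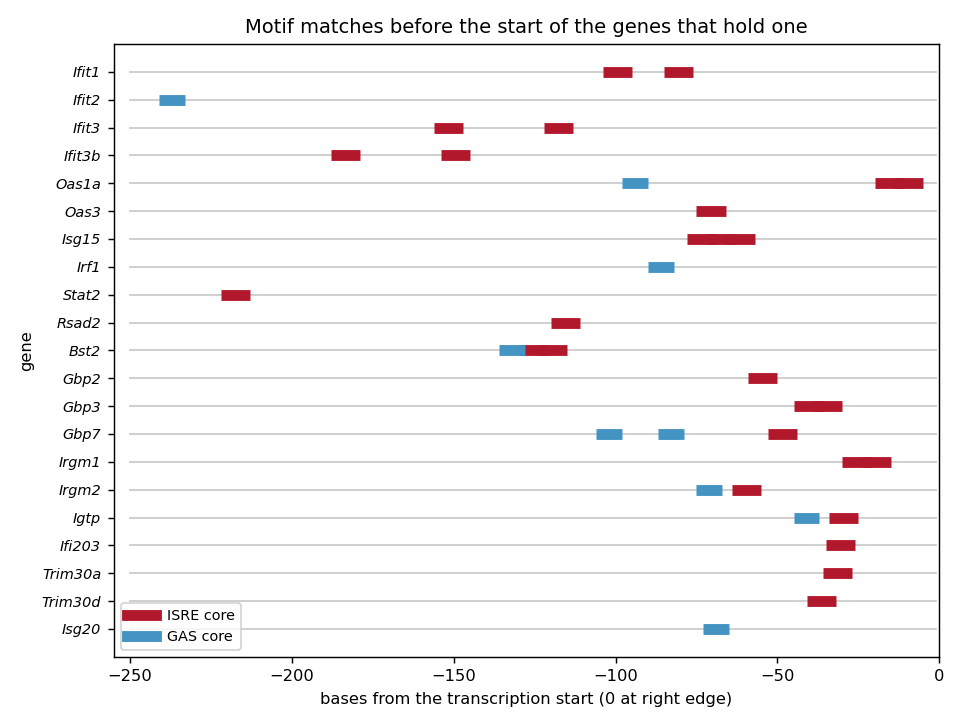
Position of ISRE cores (red) and GAS cores (blue) in the 250 bases before the transcription start, in bases from the start on the horizontal axis, with 1 grey line for each gene that holds at least 1 of them. An ISRE core was present in 18 of the 33 genes with a sequence, in some as 2 or 3 neighbouring or overlapping copies.

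The libraries held 13520906 to 19068323 estimated counts each. Uninduced control replicate 3 stood apart, with 6.02% of its counts from mitochondrial genes, while induced knockdown replicate 1 had the fewest counts and a mitochondrial share of 1.95%. Whether replicates were grown as separate cultures is not stated in the labels, so the tests measure the spread between these samples, which may be technical. The kit did not keep the strand, so a gene's reads include any from an overlapping antisense partner. Levels are given as CPM, the count as a share of the library's TMM-scaled total. TPM, which also accounts for transcript length, is used where genes are compared with each other. Unless TPM is named, ranges are of CPM, and for some genes the TPM ranges differ in whether they overlap. What made CPM and TPM differ was not tested. As for the labelled cell type, 9 myoblast and muscle markers summed to 405 to 478 CPM in uninduced Zfp143 siRNA cells and 360.1 to 408 CPM in uninduced control siRNA cells, with Des the most abundant. Higher and lower refer to an edgeR adjusted p under 0.05, with adjustment over all 15030 tested genes. In uninduced cells Zfp143 itself stood at 12.2, 11.9 and 10.1 CPM with its siRNA, against 23.2, 27.8 and 39.8 CPM with the control siRNA (log2 fold change -1.41, SE 0.18, edgeR adjusted p = 6.12e-05). On day 5 it stood at 14.7, 16.8 and 19.7 CPM with its siRNA, against 19.7, 19.3 and 19.3 CPM with the control siRNA, a difference that did not pass the test (log2 fold change -0.18, SE 0.18, adjusted p = 0.646). The day 5 values therefore come from cells that had received the siRNA but in which a lower target transcript was not detected.

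Most of the genes were far lower in myoblasts than on day 5, many of them under 1 CPM there. In Zfp143 siRNA cells the median member stood at 124 CPM on day 5, against 1.28 CPM uninduced, and in control siRNA cells at 164.5 CPM on day 5, against 0.408 CPM uninduced. Of the 43 genes 28 exceeded 100 CPM on day 5 in Zfp143 siRNA cells and 32 did in control siRNA cells, while 3 did so in either uninduced group. A total of 20 members were under 1 CPM in uninduced Zfp143 siRNA cells and 23 in uninduced control siRNA cells. Oas2, Oas3, Cmpk2 and Trim30d had no counts at all in either uninduced group. In bulk RNA, fewer responding cells and less RNA per cell cannot be told apart.

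**Figure D2:**
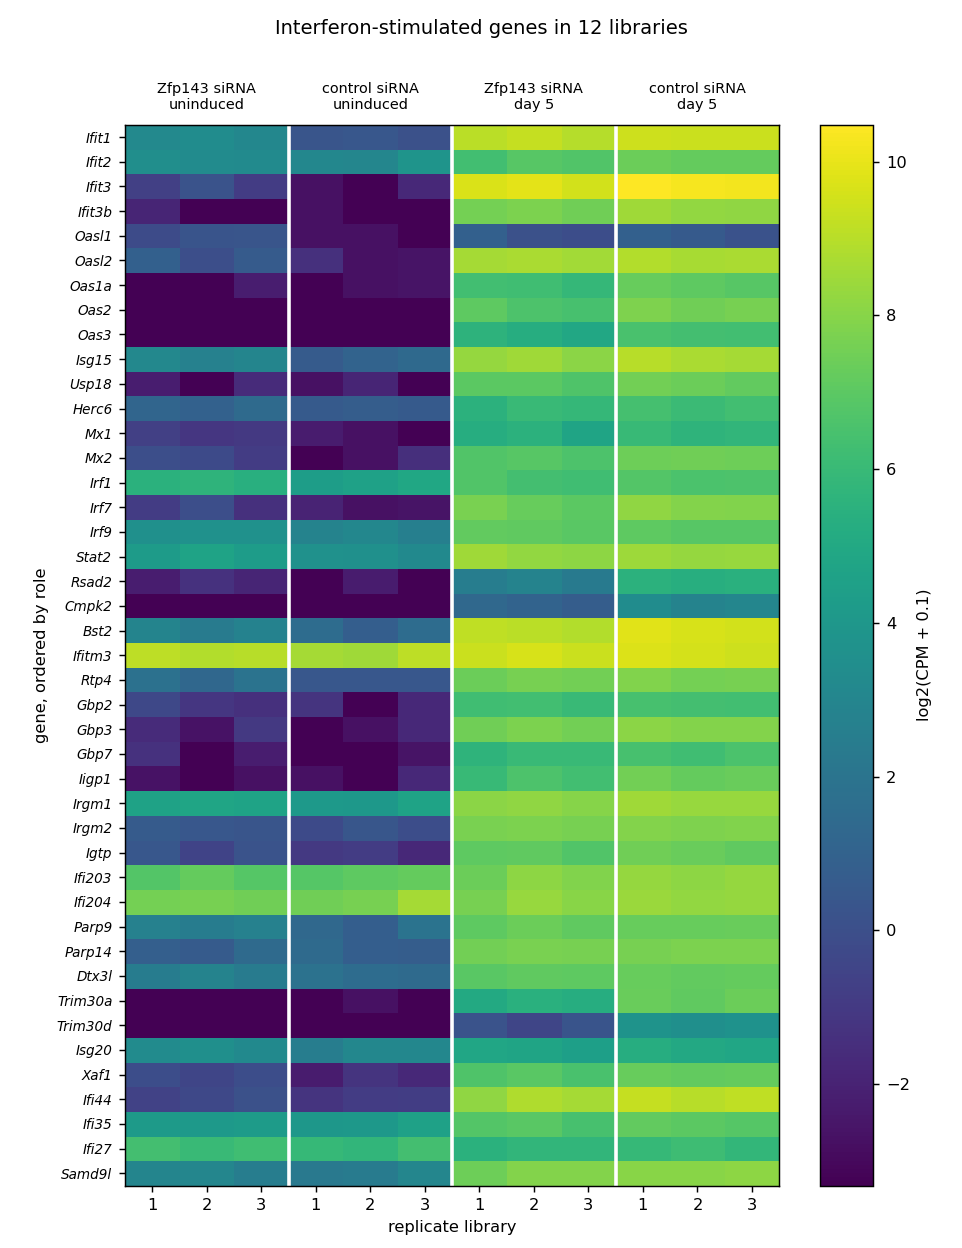
Level of each of the 43 genes (rows, grouped by role) in each of the 12 libraries (columns), as log2(CPM + 0.1) from dark (low) to yellow (high). The 6 day 5 libraries are brighter than the 6 uninduced ones in nearly every row. Ifitm3, Ifi203, Ifi204 and Ifi27 are the rows already bright in uninduced cells.

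Between day 5 and uninduced cells, 40 of the 43 genes were higher and 1 was lower in Zfp143 siRNA cells, against 36% higher and 30.1% lower among all tested genes (66.1% in either direction). In control siRNA cells 41 were higher and 0 were lower, against 33.2% higher and 30.9% lower of all tested genes (64.1% in either direction). In Zfp143 siRNA cells the ranges of the 3 libraries lay above for 40 members and below for 1, against 38.5% above and 33.7% below among all tested genes. In control siRNA cells 41 ranges lay above, against 35.8% of all tested genes. Only 25 of the 43 pass the filter on low counts in the uninduced libraries alone. The other 18 were tested because of their day 5 counts and had to differ, so those 25 are the ones to read. Of them 22 were higher and 1 lower in Zfp143 siRNA cells, and 23 were higher in control siRNA cells. Over these 25 the median log2 fold change was 4.45 in Zfp143 siRNA cells and 5.49 in control siRNA cells. Over all tested genes it was 0.10 in Zfp143 siRNA cells and 0.03 in control siRNA cells.

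Ifitm3, which blocks viral fusion in endosomes, was the most abundant of the set in every group. It reached 3099 ± 265 TPM on day 5 with the Zfp143 siRNA and 3102 ± 247 TPM with the control siRNA (SD, n = 3 each). In uninduced cells it already stood at 1461 ± 57.0 TPM with the Zfp143 siRNA and 1291 ± 64.3 TPM with the control siRNA, holding 77.0% of all TPM of the 43 genes with the Zfp143 siRNA and 75.7% with the control siRNA. Next on day 5 came Bst2, tetherin, which holds budding virus at the cell surface, with 1908 ± 154 TPM in Zfp143 siRNA cells and 2903 ± 218 TPM in control siRNA cells. Isg15, a ubiquitin-like modifier, followed with 1293 ± 168 TPM in Zfp143 siRNA cells and 1657 ± 186 TPM in control siRNA cells. Ifit3, a partner of the RNA-binding protein IFIT1, had 939 ± 115 TPM with the Zfp143 siRNA and 1274 ± 88.6 TPM with the control siRNA. In both day 5 groups the order was Ifitm3, Bst2, Isg15, Ifit3 and Ifit1, although in control siRNA cells the TPM of Ifitm3 and Bst2 lay within their spread of each other.

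Genes with 1 to 3 summed uninduced counts, or none, have only rough folds. Oas1a, a synthetase that makes the activator of RNase L, had 7773 counts on day 5, against 2 uninduced, in control siRNA cells, a ratio of 3520 (95% counting interval 974 to 29068, for counting error only). Oas2, of the same family, was at least 617-fold higher on day 5 in Zfp143 siRNA cells and at least 1151-fold higher in control siRNA cells. Trim30d, a member of the rodent TRIM30 family, was at least 5.42-fold higher on day 5 with the Zfp143 siRNA and at least 72.3-fold higher with the control siRNA.

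A few genes did not follow in CPM with 1 or both siRNAs. Ifi204, a DNA-binding protein of the IFI200 family, passed the test in neither siRNA (log2 fold change 0.43 with the Zfp143 siRNA, SE 0.24, and 0.29 with the control siRNA, SE 0.24). Its highest uninduced value was in the library that stood apart, 397.6 CPM in uninduced control replicate 3, against 182 and 198 CPM in replicates 1 and 2. In TPM, every day 5 library of Ifi204 lay above every uninduced one of the same siRNA. With the Zfp143 siRNA it had 224 ± 22.7 TPM on day 5, against 105 ± 6.45 TPM uninduced. With the control siRNA it had 242 ± 3.10 TPM on day 5, against 145 ± 28.0 TPM uninduced (SD, n = 3 each). Ifi27, a mitochondrial protein, stood at 44.6, 55.1 and 53.4 CPM on day 5 with the Zfp143 siRNA, against 82.6, 65.1 and 76.2 CPM uninduced. By the test Ifi27 was the only member lower on day 5 (log2 fold change -0.55, SE 0.16, edgeR adjusted p = 0.00701), a call not reached with library size as the only scaling (-0.30, adjusted p = 0.0782). Its TPM did not fall, at 138 ± 7.92 on day 5, against 138 ± 11.2 uninduced (SD, n = 3 each). With the control siRNA Ifi27 had 61.3, 71.9 and 57.0 CPM on day 5, against 60.4, 55.2 and 81.8 CPM uninduced (log2 fold change -0.05, SE 0.16). There its TPM was 159 ± 14.4 on day 5, against 125 ± 9.78 uninduced (SD, n = 3 each), and these TPM ranges did not overlap. Oasl1, an OAS-like inhibitor of Irf7 translation, had 1.79, 0.990 and 0.851 CPM on day 5 with the Zfp143 siRNA, against 0.799, 1.12 and 1.13 CPM uninduced, and these ranges overlap. Its TPM ranges there did not, at 1.59, 0.860 and 0.754 on day 5, against 0.446, 0.670 and 0.647 uninduced. With the control siRNA Oasl1 was higher, at 1.77, 1.42 and 0.997 CPM on day 5, against 0.0543, 0.0549 and 0 CPM uninduced. That is 80 summed counts on day 5 and 2 uninduced, a ratio of 36.2 (95% counting interval 9.71 to 304).

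In uninduced cells 17 of the 43 genes were higher with the Zfp143 siRNA and 0 were lower, against 15.4% higher and 17.1% lower of all tested genes. Their ranges over the 3 libraries did not overlap for 21 members, all above the control siRNA. Over all tested genes 21% lay above and 22.8% below, so the members differed in direction more than in how often ranges separated. The median log2 fold change was 0.94 once 5 members without a fold were set aside, against -0.04 over all tested genes. The absolute levels were low, and several of the 17 stayed near or under 1 CPM with either siRNA. With the fit limited to the 6 uninduced libraries, 25 members were tested and 13 were higher, against 2012 higher and 1819 lower of 13341 genes. Of the 13, Oasl1, Oasl2, Xaf1 and Igtp passed that filter only through the Zfp143 siRNA group, with 0 to 8 counts in each control library. Their calls in that fit therefore carry little weight. A DESeq2 Wald test called 19 members higher and 0 lower, against 2647 higher and 2589 lower of 15030 genes. At an unadjusted edgeR p under 0.05, 23 members were higher and 0 lower. The share of all genes under that rule was not taken, so the 23 cannot be judged against it.

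All 4 transcription factors of the set were higher. Stat2, a subunit of the ISRE-binding complex, stood at 18.7, 25.6 and 19.3 CPM with the Zfp143 siRNA, against 12.4, 12.3 and 9.39 CPM with the control siRNA (log2 fold change 0.90, SE 0.16, edgeR adjusted p = 0.000807). Irf9, its DNA-binding subunit, had 12.04, 12.7 and 12.3 CPM with the Zfp143 siRNA, against 7.17, 8.29 and 6.04 CPM with the control siRNA (0.78, SE 0.13). Every knockdown library lay above every control library for both. Irf1, an activator that can bind ISREs on its own, had 45.6, 49.5 and 41.7 CPM with the Zfp143 siRNA, against 20.2, 23.8 and 29.8 CPM with the control siRNA (0.89, SE 0.16). Irf7, the amplifier of interferon alpha genes, was at the limit of detection, with 0.457, 0.886 and 0.283 CPM with the Zfp143 siRNA, against 0.163, 0.0549 and 0.0657 CPM with the control siRNA (2.40, SE 0.81, adjusted p = 0.0140). The Irf7 call was lost with limma-voom (adjusted p = 0.0588) and when uninduced control replicate 2 (0.0572) or uninduced knockdown replicate 2 (0.0666) was left out. Without uninduced control replicate 1 the log2 fold change was 3.03.

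Among the RNA-binding IFIT proteins, Ifit1 gave the best measured change of the set. It had 9.07, 10.5 and 8.19 CPM with the Zfp143 siRNA, against 1.14, 1.26 and 0.9854 CPM with the control siRNA (log2 fold change 3.02, SE 0.19, edgeR adjusted p = 3.50e-08), from 481 summed counts with the Zfp143 siRNA and 59 with the control siRNA. Ifit3 had 0.514, 1.06 and 0.452 CPM with the Zfp143 siRNA, against 0.0543, 0 and 0.197 CPM with the control siRNA (3.01, SE 0.83). With 4 control counts the Ifit3 fold depended on single control libraries: it was 2.42 without uninduced control replicate 2 and 4.32 without replicate 3, and higher in both. Ifit2 had overlapping ranges, at 10.4 ± 0.836 CPM with the Zfp143 siRNA and 9.997 ± 3.46 CPM with the control siRNA (SD, n = 3 each; log2 fold change 0.06, 95% confidence interval -0.39 to 0.51). Ifit2 and Ifit1 lie in the same gene cluster, with Ifit3 and Ifit3b between them.

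The OAS-like genes were both higher, while the synthetases had almost no counts with either siRNA. Oasl2 had 1.77, 0.886 and 1.47 CPM with the Zfp143 siRNA, against 0.272, 0.0549 and 0.0657 CPM with the control siRNA (log2 fold change 3.29, SE 0.56, edgeR adjusted p = 6.39e-05). It was 4.38 without uninduced control replicate 1, which held most of the 7 control counts. Oasl1, its neighbour in the genome, had 53 summed counts with the Zfp143 siRNA, against 2 with the control siRNA, a ratio of 26.3 (95% counting interval 6.94 to 223). Oas1a had 2 summed counts in either group. Oas2 and Oas3 had none, which allows a level of up to 0.173 CPM with the Zfp143 siRNA and 0.175 CPM with the control siRNA (3 counts per library, for counting error only).

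Isg15 had 8.50, 6.55 and 7.57 CPM with the Zfp143 siRNA, against 1.47, 1.98 and 2.496 CPM with the control siRNA (log2 fold change 1.94, SE 0.22, edgeR adjusted p = 1.11e-05), with no overlap. Usp18, the protease that removes ISG15 and dampens receptor signalling, had 6 summed counts with the Zfp143 siRNA and 4 with the control siRNA, and did not pass the test (0.114, 0 and 0.226 CPM with the Zfp143 siRNA, against 0.0543, 0.165 and 0 CPM with the control siRNA). Herc6, the mouse ligase for ISG15, had ranges that did not overlap in CPM but did in TPM, and missed the threshold (0.59, SE 0.23, adjusted p = 0.0636). Of the dynamin-like antiviral GTPases, Mx2 was higher at 0.913, 0.768 and 0.452 CPM with the Zfp143 siRNA, against 0, 0.0549 and 0.263 CPM with the control siRNA (2.79, SE 0.71). From 5 control counts, the Mx2 fold was 2.20 without uninduced control replicate 1 and 4.40 without replicate 3. Mx1 had 0.514, 0.354 and 0.396 CPM with the Zfp143 siRNA, against 0.109, 0.0549 and 0 CPM with the control siRNA. That is 22 summed counts with the Zfp143 siRNA, against 3 with the control siRNA, a ratio of 7.29 (95% counting interval 2.19 to 38.0), and the Mx1 call was lost without both libraries that stood apart (adjusted p = 0.0806). Without uninduced control replicate 1 its log2 fold change was 3.55, against 2.73 with all libraries.

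Bst2 was the clearest of the membrane effectors, with 7.36, 5.31 and 6.89 CPM with the Zfp143 siRNA, against 2.88, 1.65 and 2.82 CPM with the control siRNA (log2 fold change 1.42, SE 0.22, edgeR adjusted p = 0.000215). Rtp4, a chaperone with antiviral activity, had 3.48, 2.30 and 3.67 CPM with the Zfp143 siRNA, against 1.250, 1.26 and 1.25 CPM with the control siRNA (1.33, SE 0.22). Ifitm3 did not separate in CPM: 549, 465 and 508 CPM with the Zfp143 siRNA, against 395, 367 and 560.1 CPM with the control siRNA, where the library that stood apart gave the highest of the 6 values. In TPM it did separate, at 1524, 1413 and 1445 with the Zfp143 siRNA, against 1359, 1282 and 1231.5 with the control siRNA. There the library that stood apart gave the lowest value. The log2 fold change of Ifitm3 was 0.20 (95% confidence interval -0.15 to 0.56). Rsad2, viperin, an enzyme that makes a chain-terminating nucleotide, had 10 summed counts with the Zfp143 siRNA and 2 with the control siRNA. Its values of 0.114, 0.295 and 0.170 CPM with the Zfp143 siRNA, against 0, 0.1098 and 0 CPM with the control siRNA, did not pass the test (adjusted p = 0.0644).

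Among the guanylate-binding and immunity-related GTPases, which act on vacuoles that hold pathogens, 1 of 7 was higher, a share near the 15.4% of all tested genes. Igtp, also called IRGM3, had 1.26, 0.590 and 1.07 CPM with the Zfp143 siRNA, against 0.380, 0.439 and 0.197 CPM with the control siRNA (log2 fold change 1.48, SE 0.41, edgeR adjusted p = 0.00908). The Igtp call was not reached with limma-voom (adjusted p = 0.0515). Irgm1, the most abundant of them in myoblasts, had 24.3, 27.7 and 25.9 CPM with the Zfp143 siRNA, against 16.7, 16.6 and 25.8 CPM with the control siRNA (0.40, SE 0.16, adjusted p = 0.0646). Gbp2 had 0.685, 0.354 and 0.283 CPM with the Zfp143 siRNA, against 0.326, 0 and 0.197 CPM with the control siRNA. Iigp1 had 2 summed counts with the Zfp143 siRNA and 4 with the control siRNA (0.0571, 0 and 0.0565 CPM with the Zfp143 siRNA, against 0.0543, 0 and 0.197 CPM with the control siRNA). The CPM ranges of Irgm1, Gbp2 and Iigp1 overlap between the siRNAs. For Irgm1 the library that stood apart gave the highest control value in CPM. In TPM the Irgm1 ranges did not overlap, at 13.8 to 16.5 with the Zfp143 siRNA, against 11.9 to 12.2 with the control siRNA. Those of Gbp2 and Iigp1 overlapped in TPM as well.

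The neighbouring genes Parp14, Dtx3l and Parp9, which encode ADP-ribosyltransferases and an E3 ligase that pairs with PARP9, split. Parp9 had 6.20 ± 0.619 CPM with the Zfp143 siRNA and 2.59 ± 1.02 CPM with the control siRNA (SD, n = 3 each; log2 fold change 1.28, SE 0.22). Dtx3l had 5.98 ± 0.966 CPM with the Zfp143 siRNA and 2.99 ± 0.480 CPM with the control siRNA (0.99, SE 0.16), and edgeR adjusted p was 0.000450 for Parp9 and 0.000346 for Dtx3l. Parp14 had 1.71, 1.48 and 2.60 CPM with the Zfp143 siRNA, against 2.66, 1.65 and 1.58 CPM with the control siRNA (-0.03, 95% confidence interval -0.55 to 0.48). Xaf1, a proapoptotic binding partner of XIAP, had 0.856, 0.649 and 0.848 CPM with the Zfp143 siRNA, against 0.109, 0.329 and 0.197 CPM with the control siRNA (1.86, SE 0.42, adjusted p = 0.00178). Ifi27, Ifi35, Samd9l, Ifi203 and Ifi204 had log2 fold changes between -0.43 and 0.26 and did not pass the test. Isg20, an exonuclease, and Ifi44 had ranges that did not overlap in CPM but did in TPM, with adjusted p of 0.0634 and 0.0954.

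**Figure D3:**
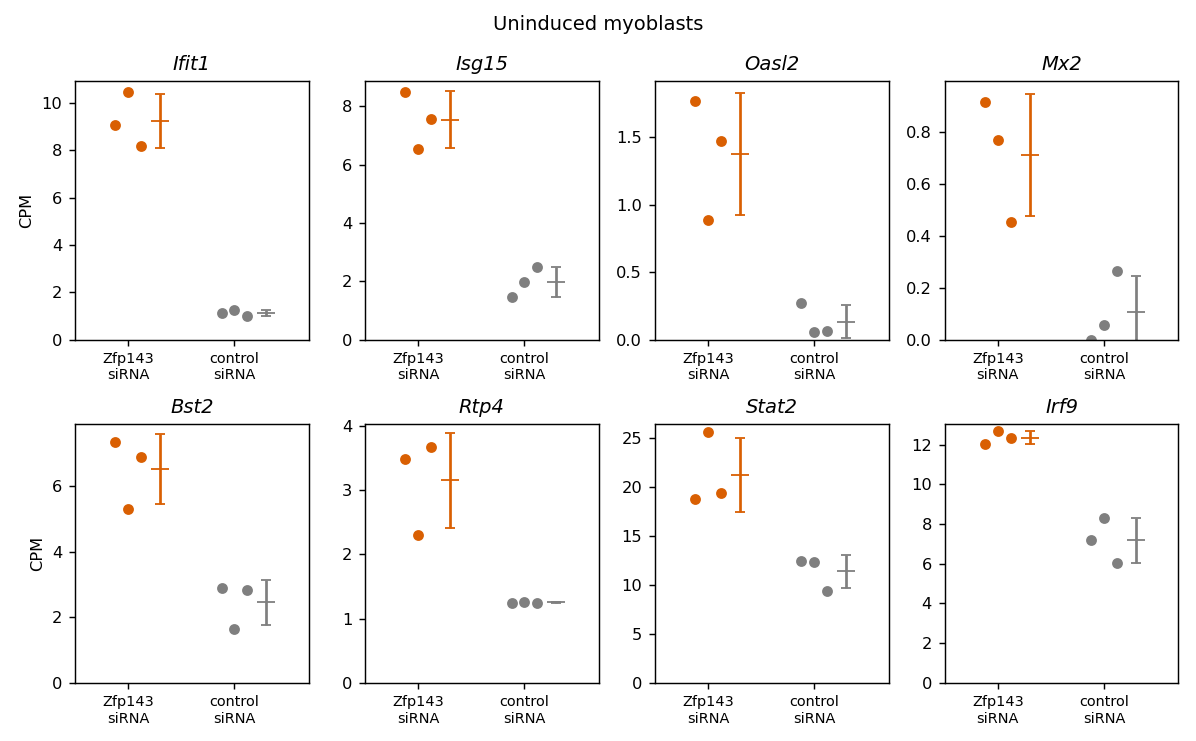
CPM of 8 genes that were higher with the Zfp143 siRNA in uninduced cells. Points are single libraries (orange, Zfp143 siRNA; grey, control siRNA), bars are mean ± SD (n = 3), and each panel has its own axis from 0. In every panel the 3 Zfp143 siRNA libraries lie above the 3 control siRNA libraries, at levels from under 1 CPM for Mx2 to about 26 CPM for Stat2.

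The rest of the pathway was measured beside these genes, and the counts that follow stand against 15.4% higher and 17.1% lower of all tested genes. Of 21 interferon genes, 19 had no counts in uninduced Zfp143 siRNA cells and 20 had none in uninduced control siRNA cells, Ifnb1 and Ifng among them in both. Of 10 tested receptor chains and signalling proteins, 1 was lower and 0 were higher. That one was Ifnar1, a chain of the type I interferon receptor, with 53.9, 49.5 and 50.1 CPM with the Zfp143 siRNA, against 85.3, 90.6 and 87.4 CPM with the control siRNA (log2 fold change -0.78, SE 0.10, edgeR adjusted p = 6.71e-05). Of 12 tested inhibitors of the pathway 2 were higher and 3 lower, with log2 fold changes down to -0.69 and a median of 0.02. The higher ones were Socs1 (1.44, SE 0.27) and Socs3 (1.43, SE 0.14), which block Janus kinases. Socs3 stood at 48.3, 42.98 and 50.01 CPM with the Zfp143 siRNA, against 19.1, 18.6 and 14.8 CPM with the control siRNA. Of 17 tested nucleic acid sensors and their adaptors 3 were higher and 2 lower, with log2 fold changes down to -0.78 and a median of 0.13. Among the higher ones was Dhx58, a regulator of RIG-I (1.93, SE 0.40). None of the 3 other enzymes of ISG15 conjugation passed the test in either state. Of 14 genes of MHC class I antigen presentation 1 was higher and 1 lower. Of 55 further interferon-stimulated genes 15 were higher and 6 lower, with a median of 0.12. Apol9b, an apolipoprotein L, had 21.3, 16.5 and 21.6 CPM with the Zfp143 siRNA, against 2.23, 1.98 and 2.43 CPM with the control siRNA (3.16, SE 0.18). Ccl5, a chemokine, had 1.31, 1.42 and 1.41 CPM with the Zfp143 siRNA, against 0.163, 0.0549 and 0 CPM with the control siRNA (4.05, SE 0.80).

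Markers of leukocytes moved in the same comparison. Of 15 macrophage and leukocyte markers 4 were tested and 2 were higher with the Zfp143 siRNA: Cd68 at 5.59, 4.49 and 7.06 CPM, against 1.85, 0.878 and 1.84 CPM with the control siRNA, and Csf1r at 3.42, 3.66 and 3.22 CPM, against 1.25, 0.329 and 0.131 CPM with the control siRNA. The summed level of all 15 was 31.5 to 40.3 CPM with the Zfp143 siRNA and 22.8 to 31.3 CPM with the control siRNA. The defining markers Adgre1, Itgam, Fcer1g and Aif1 had no counts in either uninduced group. Ptprc, the pan-leukocyte marker CD45, had 8 summed counts with the Zfp143 siRNA and 0 with the control siRNA, Cd3e had 1 with the Zfp143 siRNA and 0 with the control siRNA, and Tyrobp had 0 with the Zfp143 siRNA and 3 with the control siRNA. Of 3 tested endothelial markers 0 changed, and the summed level of all 7 was 5.08 to 7.79 CPM with the Zfp143 siRNA and 5.98 to 6.90 CPM with the control siRNA. Fibroblast markers, of which 6 of 7 were tested and 1 was higher, summed to 641 to 739 CPM with the Zfp143 siRNA and 558 to 846 CPM with the control siRNA. Their part in the differences above was not tested.

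On day 5 the direction was the other one. Of the 43 genes 14 were lower with the Zfp143 siRNA and 0 were higher, against 5.77% lower and 3.73% higher of all tested genes (9.49% in either direction). The range of the 3 Zfp143 siRNA libraries lay wholly below that of the control siRNA for 29 members, against 16.7% of all tested genes. The median log2 fold change was -0.43, against -0.03 over all tested genes. The count moved with the libraries: it was 8 without induced knockdown replicate 3, 9 without induced control replicate 1 or replicate 2, and 24 without both libraries that stood apart. Lower calls over all tested genes moved as well, from 867 of 15030 with all libraries. They were 678 of 15503 without induced knockdown replicate 3, 625 of 15504 without induced control replicate 1 and 564 of 15462 without replicate 2. Without both libraries that stood apart they were 1576 of 15415. Of the 14 genes 8 were lower under every alternative run: Trim30a, Trim30d, Rsad2, Cmpk2, Oas1a, Oas2, Oas3 and Iigp1. Among these 8, Rsad2 and Cmpk2, Trim30a and Trim30d, and Oas2 and Oas3 are pairs of adjacent coding genes in the RefSeq gene table.

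Rsad2 and Cmpk2, a nucleotide kinase that supplies the substrate of viperin, were lower together. Rsad2 had 5.71, 7.03 and 5.00 CPM with the Zfp143 siRNA, against 45.9, 39.6 and 42.5 CPM with the control siRNA (log2 fold change -2.85, SE 0.19, edgeR adjusted p = 8.62e-07). Cmpk2 had 2.46, 1.98 and 1.55 CPM with the Zfp143 siRNA, against 10.4, 7.17 and 7.92 CPM with the control siRNA (-2.09, SE 0.27, adjusted p = 0.000485). The highest Zfp143 siRNA library was far below the lowest control siRNA library in both.

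The genes of the TRIM30 family, of which Trim30a encodes a brake on innate receptor signalling in mice, had the other large differences. Trim30a had 32.8, 43.2 and 38.7 CPM with the Zfp143 siRNA, against 163, 138 and 164 CPM with the control siRNA (log2 fold change -2.02, SE 0.15, edgeR adjusted p = 2.84e-06). Trim30d had 1.06, 0.643 and 1.10 CPM with the Zfp143 siRNA, against 13.3, 11.5 and 13.1 CPM with the control siRNA (-3.76, SE 0.27, adjusted p = 8.50e-06). Trim30a and Trim30d are related genes, and how the quantification shared reads between them was not tested. Their sum was 33.9, 43.9 and 39.8 CPM with the Zfp143 siRNA, against 176, 150.0 and 177 CPM with the control siRNA. Trim30a held 96.9% to 98.5% of that sum with the Zfp143 siRNA and 92.3% to 92.6% with the control siRNA.

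All 3 oligoadenylate synthetases of the set were lower. Oas1a had 78.4, 74.8 and 59.1 CPM with the Zfp143 siRNA, against 155, 133 and 119 CPM with the control siRNA (log2 fold change -0.94, SE 0.17, edgeR adjusted p = 0.00159). Oas2 had 131, 99.6 and 89.3 CPM with the Zfp143 siRNA, against 221, 179.9 and 203 CPM with the control siRNA (-0.92, SE 0.16). Oas3 had 49.2, 38.7 and 31.4 CPM with the Zfp143 siRNA, against 91.0, 82.2 and 79.3 CPM with the control siRNA (-1.08, SE 0.17). No Zfp143 siRNA library overlapped the control siRNA range for these 3 genes. The OAS-like genes did not pass the test: Oasl2 had 398, 428 and 373 CPM with the Zfp143 siRNA, against 465, 414 and 422 CPM with the control siRNA, and the ranges overlapped (-0.12, 95% confidence interval -0.45 to 0.21). Oas1g, a relative of Oas1a outside the set, was lower as well (-1.76, SE 0.16), and Oas1a held 80.5% to 81.2% of their sum with the Zfp143 siRNA and 69.8% to 71.2% with the control siRNA.

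Iigp1, an immunity-related GTPase that attacks parasite vacuoles, had 62.0, 99.9 and 79.8 CPM with the Zfp143 siRNA, against 186, 148 and 162 CPM with the control siRNA (log2 fold change -1.03, SE 0.18, edgeR adjusted p = 0.00159). The other 6 GTPases did not pass the test, with log2 fold changes between -0.50 and -0.18. Gbp2 had 76.3, 78.1 and 64.7 CPM with the Zfp143 siRNA, against 89.7, 81.1 and 77.6 CPM with the control siRNA, and its ranges overlapped. Irgm1 had 266, 293 and 254 CPM with the Zfp143 siRNA, against 360.2, 322 and 332 CPM with the control siRNA. That range lay wholly below that of the control siRNA, but Irgm1 did not pass the test (edgeR adjusted p = 0.246). In TPM its ranges overlapped, at 287, 260 and 241 with the Zfp143 siRNA, against 301, 278 and 296 with the control siRNA.

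**Figure D4:**
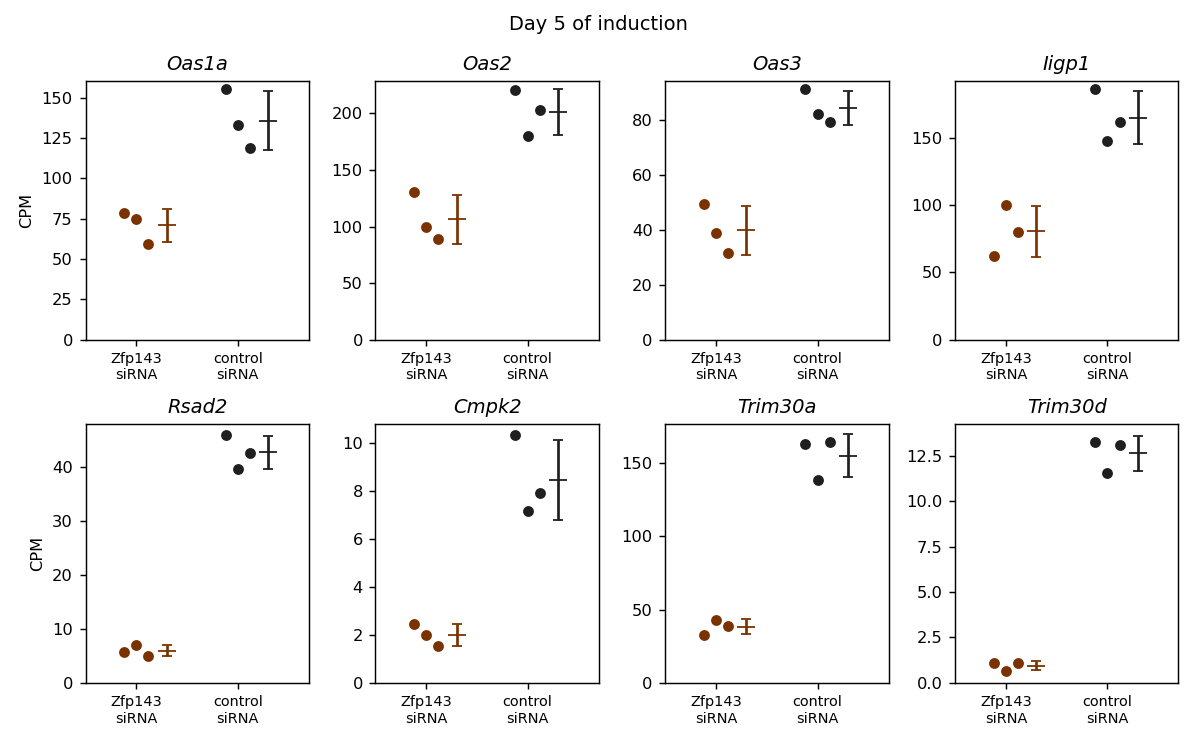
CPM on day 5 of the 8 genes that were lower with the Zfp143 siRNA under every alternative run. Points are single libraries (brown, Zfp143 siRNA; black, control siRNA), bars are mean ± SD (n = 3), and each panel has its own axis from 0. The Zfp143 siRNA libraries lie below the control siRNA libraries in all 8 panels, by the widest relative margin for Trim30d and Rsad2.

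The 6 other lower genes had smaller differences, each lost under at least 1 alternative. Bst2 had 571, 524 and 466 CPM with the Zfp143 siRNA, against 939.8, 812 and 730.2 CPM with the control siRNA (log2 fold change -0.67, SE 0.16, edgeR adjusted p = 0.0160, and up to 0.0929 with 1 library left out). Irf7 had 207, 157 and 128 CPM with the Zfp143 siRNA, against 295, 237 and 235 CPM with the control siRNA (-0.64, SE 0.18, adjusted p = 0.0411, and up to 0.195). Xaf1 had 102, 121 and 92.7 CPM with the Zfp143 siRNA, against 155, 141 and 146 CPM with the control siRNA (-0.49, SE 0.13, adjusted p = 0.0265, and up to 0.123). Mx2 (-0.70, SE 0.16), Ifit3b (-0.67, SE 0.17) and Ifi44 (-0.59, SE 0.16) had adjusted p up to 0.0574, 0.107 and 0.109 under the alternatives. Bst2, Irf7, Xaf1 and Mx2 were the 4 genes both higher with the Zfp143 siRNA in uninduced cells and lower with it on day 5.

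Most of the genes that were higher with the Zfp143 siRNA in myoblasts did not pass the test on day 5. Ifit1 had 539, 617 and 493 CPM with the Zfp143 siRNA, against 687, 666 and 656 CPM with the control siRNA (log2 fold change -0.29, SE 0.12, edgeR adjusted p = 0.204). Ifit3 had 842, 967 and 747 CPM with the Zfp143 siRNA, against 1426, 1242 and 1203 CPM with the control siRNA (-0.60, SE 0.19, adjusted p = 0.0586). Isg15 had 311, 369.9 and 271 CPM with the Zfp143 siRNA, against 502.5, 423 and 395 CPM with the control siRNA (-0.47, SE 0.16, adjusted p = 0.0769). In all 3 genes the Zfp143 siRNA CPM range lay below the control siRNA range, and the threshold was missed. In TPM this order held for Ifit3 and Isg15. The TPM ranges of Ifit1 overlapped, at 473, 420.5 and 376 with the Zfp143 siRNA, against 446, 484 and 442 with the control siRNA. Mx1 had 38.0, 46.7 and 26.7 CPM with the Zfp143 siRNA, against 62.8, 50.6 and 53.8 CPM with the control siRNA (-0.59, SE 0.18, adjusted p = 0.0616). Usp18, which had not passed the test in myoblasts, had 129.7, 129 and 103 CPM with the Zfp143 siRNA, against 186, 165 and 142 CPM with the control siRNA (-0.45, SE 0.18, adjusted p = 0.152).

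The transcription factors other than Irf7 had overlapping CPM ranges on day 5. Stat2 had 368, 301 and 277 CPM with the Zfp143 siRNA, against 346, 313 and 326 CPM with the control siRNA (log2 fold change -0.06, 95% confidence interval -0.37 to 0.26). Irf9 had 143, 137 and 124 CPM with the Zfp143 siRNA, against 132, 121 and 119 CPM with the control siRNA. It was the only member with a positive log2 fold change (0.12, 95% confidence interval -0.13 to 0.37). In TPM the Irf9 ranges did not overlap, at 120.5, 103.5 and 98.8 with the Zfp143 siRNA, against 93.2, 87.0 and 91.5 with the control siRNA. Mean TPM was also higher with the Zfp143 siRNA for Stat2, Parp9, Parp14 and Oasl2, with overlapping ranges, and lower for every other member. Irf1 had 107, 81.7 and 75.9 CPM with the Zfp143 siRNA, against 112, 95.7 and 98.8 CPM with the control siRNA (-0.21, 95% confidence interval -0.55 to 0.12). Parp14 had 186, 209 and 197 CPM with the Zfp143 siRNA, against 204, 219.6 and 215 CPM with the control siRNA (-0.11, 95% confidence interval -0.43 to 0.21). Ifitm3 had 657, 814 and 669 CPM with the Zfp143 siRNA, against 859, 767 and 686 CPM with the control siRNA (-0.11, 95% confidence interval -0.47 to 0.24).

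**Figure D5:**
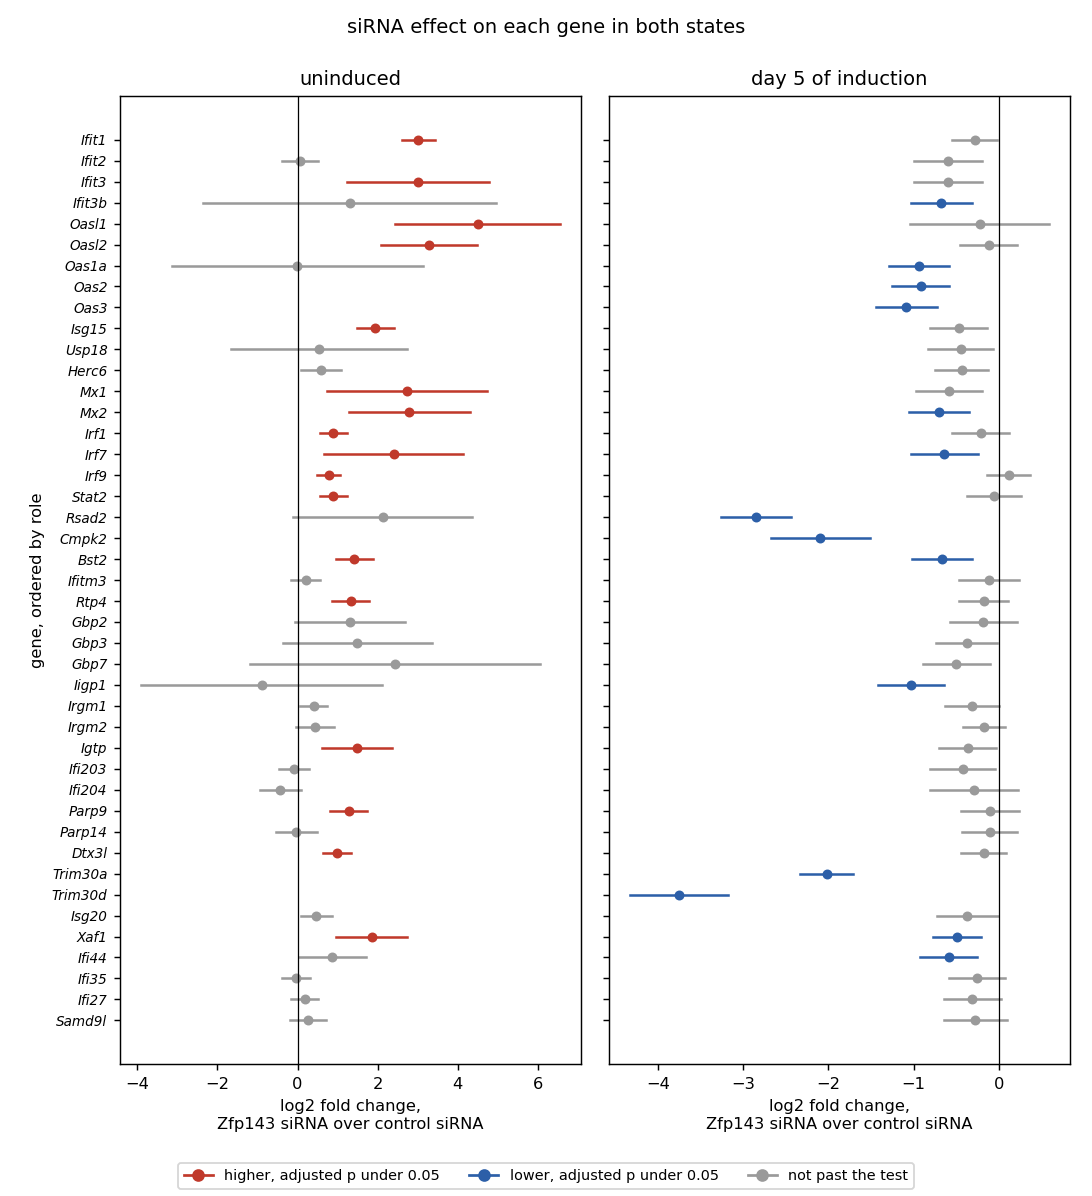
Log2 fold change of the Zfp143 siRNA over the control siRNA for each gene (rows), with its 95% confidence interval, in uninduced cells (left) and on day 5 (right). Red marks higher, blue lower and grey not past the test. The panels have separate horizontal scales, and the 5 genes without counts in a group have no point on the left. The 17 red points are all on the left and the 14 blue points all on the right.

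The wider pathway on day 5 was mixed, and its counts stand against 3.73% higher and 5.77% lower of all tested genes. Ifng, interferon gamma, was the only interferon gene with enough counts to test, with 0.199, 0.891 and 0.851 CPM with the Zfp143 siRNA, against 2.65, 1.63 and 2.78 CPM with the control siRNA (log2 fold change -1.81, SE 0.49, edgeR adjusted p = 0.0394). With any 1 of the 6 day 5 libraries left out that call was lost (adjusted p 0.0658 to 0.159), as it was with a block for replicate number (-1.87, adjusted p = 0.0598). Ifnb1 had 14 summed counts with the Zfp143 siRNA and 30 with the control siRNA and was not tested. Of 10 tested receptor chains and signalling proteins only Jak2 changed: it was higher at 141, 191 and 199 CPM with the Zfp143 siRNA, against 126, 117 and 134 CPM with the control siRNA (0.49, SE 0.13, adjusted p = 0.0300), a call lost without 5 of the 6 day 5 libraries in turn. Of 12 tested inhibitors 1 was lower, Socs3, with 81.2, 93.9 and 103 CPM with the Zfp143 siRNA, against 205, 163 and 166 CPM with the control siRNA (-0.94, SE 0.14). Of 17 tested sensors and adaptors 1 was lower, a share near that of all genes. Of the 55 further interferon-stimulated genes 17 were lower and 1 higher, with a median of -0.39. Among them were Gbp9, a guanylate-binding protein (-2.78, SE 0.21), and Ccl5, at 9.897, 7.82 and 5.70 CPM with the Zfp143 siRNA, against 49.0, 34.9 and 36.1 CPM with the control siRNA (-2.36, SE 0.21). Of the 14 MHC class I genes 3 were lower and 0 higher. H2-K1, a class I heavy chain, had 207, 221 and 194 CPM with the Zfp143 siRNA, against 675, 513 and 466 CPM with the control siRNA (-1.41, SE 0.14). B2m, the light chain, had 989.5, 898.5 and 854 CPM with the Zfp143 siRNA, against 2482, 1892 and 1992 CPM with the control siRNA (-1.22, SE 0.22).

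Muscle genes moved in the same comparison. Of 9 myoblast and muscle markers 6 were lower and 0 higher on day 5 with the Zfp143 siRNA, against 5.77% lower and 3.73% higher of all tested genes. Their summed level was 3052 to 3946 CPM with the Zfp143 siRNA and 7718 to 9682 CPM with the control siRNA. Myh3, embryonic myosin heavy chain, had 571, 489 and 550.4 CPM with the Zfp143 siRNA, against 1292, 1887 and 1554 CPM with the control siRNA (log2 fold change -1.56, SE 0.18, edgeR adjusted p = 4.23e-05). Tnnt2, a troponin T, had 178, 176 and 174 CPM with the Zfp143 siRNA, against 480.2, 666 and 499 CPM with the control siRNA (-1.64, SE 0.14). In uninduced cells 2 of the 9 were higher and 2 lower, against 15.4% higher and 17.1% lower of all tested genes. The 9 log2 fold changes there ran from -1.75 to 3.22, with a median of 0.18. Tnnt2 was higher there with the Zfp143 siRNA, at 26.9, 23.7 and 30.2 CPM, against 4.13, 4.99 and 4.73 CPM with the control siRNA (2.54, SE 0.16). Of the 4 tested leukocyte markers 1 was higher on day 5, Cd14, at 26.6, 21.9 and 21.8 CPM with the Zfp143 siRNA, against 15.6, 15.4 and 14.8 CPM with the control siRNA. That call was lost when any control library of day 5 or induced knockdown replicate 1 was left out (adjusted p up to 0.0957). All 15 leukocyte markers summed to 24.7 to 29.2 CPM with the Zfp143 siRNA and 18.7 to 19.8 CPM with the control siRNA, with Adgre1 and Siglech at 0 in all 4 groups. Endothelial markers summed to 2.502 to 4.36 CPM with the Zfp143 siRNA and 4.27 to 4.85 CPM with the control siRNA, with 0 of 3 tested markers lower. Fibroblast markers summed to 3675 to 4577 CPM with the Zfp143 siRNA and 4693 to 5022 CPM with the control siRNA, with 2 of 6 tested markers lower. Their part in the day 5 differences was not tested.

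The siRNA effect itself differed between the states for part of the set. The effect on day 5 minus the effect in uninduced cells was negative and past the test for 22 of the 43 genes, against 11.8% of all tested genes, and positive and past it for 0, against 10.6%. For Ifit1 it was -3.30 (SE 0.23, edgeR adjusted p = 2.89e-07), with log2 fold changes of -0.29 on day 5 and 3.02 in uninduced cells. For Isg15 it was -2.41 (SE 0.27), for Bst2 -2.09 (SE 0.27), for Stat2 -0.95 (SE 0.22) and for Irf9 -0.66 (SE 0.18). Rsad2 gave the largest difference, -4.98 (SE 1.07), but its uninduced effect rests on 10 counts with the Zfp143 siRNA and 2 with the control siRNA. Those members with no counts in an uninduced group, Oas2, Oas3, Cmpk2, Trim30a and Trim30d, allow no such comparison. For Parp14 the difference was -0.08 (95% confidence interval -0.68 to 0.53).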

How the data were processed

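The members and gene lists were chosen with earlier results of these data known. Polyadenylated RNA of 12 C2C12 libraries was measured in 1 batch, per the labels. The submitters' processing notes name fastp 1.0.1, STAR 2.7.11b, Salmon and GRCm39. For Salmon's version, and for the annotation, nothing is stated in these sources. The deposited estimated counts per gene were rounded; up to 7.26% of a library's values were not whole (tolerance 1e-09). The deposited score columns hold TPM made by the authors, and their length columns hold effective transcript lengths. The 12 deposited FPKM columns were not used or mapped. In 2 column names a pair of letters is transposed, and they were matched to induced knockdown replicates 2 and 3.

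Of 78810 lines 535 repeats were dropped. Genes were kept with filterByExpr (minimum count 10, minimum total 15; 15030 tested, 63245 not). R 4.3.3, edgeR 4.0.16 (robust quasi-likelihood, TMM, 1 mean per group, 8 residual degrees of freedom, Benjamini-Hochberg over all tested genes), limma 3.58.1 and DESeq2 1.42.0 were used, and the fit was tested on simulated data. Libraries held 13520906 to 19068323 counts; intervals of counts cover counting error only. After group means were removed, correlations of same-numbered libraries were -0.18 to 0.45 and of others -0.39 to 0.37, so the replicate numbers were not taken as pairs. All 43 members could be named; other genes were the most abundant and the 3 of smallest p of each list, with Ifnb1 named after its values were seen. A gene that this rule also names is not reported here. Promoter letters come from the RefSeq table of GRCm38.p6, and no coordinates were converted. Alternatives were other scalings, tests, filters, a length offset, summed families, a replicate block and left-out libraries.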

Additional observations from a re-analysis of the deposited data

Results flagged for a closer look

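The siRNA effect differed between the states, by an edgeR test of the difference itself (day 5 effect minus uninduced effect, log2 scale), for these genes, each given as a value only. Among the RNA-binding and OAS-like proteins it was -3.30 for Ifit1, -3.61 for Ifit3, -4.72 for Oasl1 and -3.41 for Oasl2. It was -2.41 for Isg15, -1.02 for Herc6, -3.31 for Mx1 and -3.49 for Mx2. For the transcription factors it was -1.11 for Irf1, -3.04 for Irf7, -0.66 for Irf9 and -0.95 for Stat2. It was -4.98 for Rsad2, -2.09 for Bst2, -1.51 for Rtp4, -0.72 for Irgm1 and -1.84 for Igtp. It was -1.38 for Parp9, -1.17 for Dtx3l, -0.84 for Isg20, -2.35 for Xaf1 and -1.46 for Ifi44. The fitted values of Oasl1, Mx1 and Rsad2 rest on 2 or 3 counts in uninduced control cells. Outside the set it was -6.41 for Ccl5, -3.20 for Apol9b, -2.37 for Socs3, -1.04 for Socs1, -2.04 for Dhx58, -1.50 for B2m, -1.22 for H2-K1 and -4.18 for Tnnt2. It was -2.96 for Csf1r and -2.01 for Cd68, and it was positive for Jak2 at 0.61, for Ifnar1 at 0.90 and for Zfp143 itself at 1.22. Not every one of these differences held under all alternatives: Socs1 lost its call in 10 (adjusted p up to 0.142), Jak2 in 8 (0.0867), Irgm1 in 7 (0.0813), Isg20 in 5 (0.0765), Ifi44 in 3 (0.0836), Herc6 in 2 (0.0581) and Irf9 in 1 (0.0781).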

How the results depend on the processing

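With 1 library left out at a time, the members higher with the Zfp143 siRNA in uninduced cells numbered 17 to 22. Those lower on day 5 numbered 8 to 21. Those higher on day 5 against uninduced numbered 39 to 41 (Zfp143 siRNA) and 41 to 42 (control siRNA), and those with a lower effect on day 5 numbered 19 to 27. Over all genes, 15462 to 15533 tested in these runs, 1784 to 2951 were higher in uninduced cells and 564 to 1207 lower on day 5. Higher on day 5 against uninduced were 4963 to 5752 (Zfp143 siRNA) and 4689 to 5274 (control siRNA), and 1382 to 2518 had a lower effect on day 5. Without both libraries that stood apart 24 members were lower on day 5, against 1576 of 15415 genes. With library size as the only scaling 0 members were lower on day 5 against uninduced in Zfp143 siRNA cells, since Ifi27 missed the threshold, and without a filter on low counts 1 member, Ifi204, was lower in uninduced cells (-0.45). Over the other alternatives the members higher in uninduced cells numbered 13 to 23 and those lower on day 5 numbered 11 to 24. Over all tested genes 2012 to 3522 were higher in uninduced cells and 631 to 1576 lower on day 5 in those runs. A block for replicate number gave 17 higher in uninduced cells, 16 lower on day 5 and 22 with a lower effect on day 5. Over all 15030 tested genes that block gave 2414, 922 and 1862. It is not a pairing of the libraries. With related members summed as families, chosen by name and not by measured identity, 37 genes or families remained, of which 13 were lower on day 5. Called under every alternative were 14 of the 17 uninduced members (not Mx1, Irf7 and Igtp), 8 of the 14 on day 5 and 17 of the 22 differences between states. No call changed sign. Library size as the only scaling moved the median of all genes from 0.10 to 0.35 for day 5 against uninduced in Zfp143 siRNA cells and from 0.03 to 0.21 in control siRNA cells. It gave 681 higher and 631 lower genes on day 5, against 560 and 867 with TMM, and 6597 higher and 3371 lower for day 5 against uninduced in Zfp143 siRNA cells, against 5406 and 4526. It gave 5715 higher and 3652 lower in control siRNA cells, against 4992 and 4644. The causes of these changes were not tested. Fewer than 10 summed counts in an uninduced group limit Oasl1, Mx1, Ifit3, Irf7, Mx2 and Oasl2, which were called there, and Oas1a, Usp18, Iigp1, Ifit3b, Gbp2, Gbp3, Gbp7, Rsad2 and the 5 members without a fold. The protein sequences of the paralogs were not used here.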
